A study of Mus musculus with 6 samples.

Results

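The genes described here encode sources of reactive oxygen species in the aorta. They are the NADPH oxidase subunits Nox4, Cybb, Cyba, Ncf1 and Ncf4, the small GTPases Rac1 and Rac2, the adaptor gene Shc1, which encodes p66Shc, and the monoamine oxidase gene Maoa. They are a list of gene names drawn up with earlier results of these data known. Genes absent from the table were left out of the list. That all 9 of 9 were found among its 8690 gene names, in 16 rows, was therefore fixed in advance. No row of the table has a variance under 1.00003 over the samples, so presence in it depends on measured values. Aortic RNA was sequenced from aged C57BL/6 mice of 2 genotypes, 3 mice without the deacetylase Sirt2 (Sirt2-KO, replicates 4, 7 and 8) and 3 wild-type mice (WT, replicates 2, 4 and 8). The labels give no age beyond "aged", no sex, and no description of the Sirt2 allele. The question is which of these genes differ in level between the genotypes.

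NADPH oxidases carry electrons from NADPH across a membrane to oxygen. In phagocytes the catalytic subunit is gp91phox, encoded by Cybb and also called NOX2. It is held in the membrane by p22phox, encoded by Cyba, and becomes active when cytosolic subunits, among them p47phox (Ncf1) and p40phox (Ncf4), and a Rac GTPase join it. NOX4, which is prominent in the vessel wall, also needs p22phox but none of the cytosolic subunits, is largely controlled by its own abundance, and releases mainly hydrogen peroxide. p66Shc is the longest protein made from Shc1 and can oxidise cytochrome c in mitochondria to form hydrogen peroxide. The shorter Shc proteins from the same gene link receptors to Ras signalling. Monoamine oxidase A sits on the outer mitochondrial membrane and forms hydrogen peroxide as it breaks down noradrenaline and serotonin.

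Promoter windows are shown for Nox4, the gene of the list with the smallest p and the one whose groups did not overlap, for Cybb, the catalytic gene of the phagocyte oxidase, and for both annotated starts of Shc1, because its rows changed places between aortas. Each window holds 250 bases before and 50 after a RefSeq start on GRCm38.p6. Capitals mark GGGCGG, the core of the GC box bound by Sp factors, or GAGGAA, the core of sites bound by the myeloid factor PU.1, searched on both strands.
Nox4 promoter, chr7:87246399-87246698, plus strand: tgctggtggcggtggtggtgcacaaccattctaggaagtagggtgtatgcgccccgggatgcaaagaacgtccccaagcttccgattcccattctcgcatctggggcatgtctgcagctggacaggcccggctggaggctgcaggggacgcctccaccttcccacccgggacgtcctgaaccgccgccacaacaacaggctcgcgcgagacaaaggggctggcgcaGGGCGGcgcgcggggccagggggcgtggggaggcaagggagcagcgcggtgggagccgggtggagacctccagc
Cybb promoter, chrX:9469275-9469574, minus strand: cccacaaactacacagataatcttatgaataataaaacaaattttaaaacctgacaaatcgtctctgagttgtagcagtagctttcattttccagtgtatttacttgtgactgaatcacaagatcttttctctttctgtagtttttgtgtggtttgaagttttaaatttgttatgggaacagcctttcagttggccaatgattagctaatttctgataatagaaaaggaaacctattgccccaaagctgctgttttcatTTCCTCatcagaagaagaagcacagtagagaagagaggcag
Shc1 upstream start, chr3:89418301-89418600, plus strand: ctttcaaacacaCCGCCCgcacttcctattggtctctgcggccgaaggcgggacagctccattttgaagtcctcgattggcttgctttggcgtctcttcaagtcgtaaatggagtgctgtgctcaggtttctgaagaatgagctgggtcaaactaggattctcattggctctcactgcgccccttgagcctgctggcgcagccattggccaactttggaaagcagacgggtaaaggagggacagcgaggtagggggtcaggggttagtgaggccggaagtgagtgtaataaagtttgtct
Shc1 downstream start, chr3:89421371-89421670, plus strand: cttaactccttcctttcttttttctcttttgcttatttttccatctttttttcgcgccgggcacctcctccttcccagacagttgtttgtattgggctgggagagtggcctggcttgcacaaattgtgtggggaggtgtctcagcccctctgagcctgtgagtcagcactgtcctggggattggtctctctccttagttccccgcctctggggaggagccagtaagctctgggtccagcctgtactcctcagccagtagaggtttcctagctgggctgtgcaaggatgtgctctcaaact

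The Nox4 window was 68.3% G and C with 24 CG pairs and held GGGCGG with its first base at -24 from the start. The Cybb window was 35.3% G and C with 1 CG pair and held GAGGAA on the opposite strand, written there as TTCCTC, from position 10. GGGCGG was found in 35.7% and GAGGAA in 28.3% of all 32851 RefSeq windows of this length, so neither match sets these genes apart. The upstream Shc1 window had 13 CG pairs and 1 GGGCGG on the opposite strand at -238, and the downstream one had 4 CG pairs and neither motif. In GENCODE M21, a transcript with a coding region of 579 codons, as for p66Shc, begins near the downstream start, at base 89421628 of chromosome 3. One with 469 codons, as for p52Shc, begins at the upstream one, base 89418551. The rows carry a gene name but no transcript identifier, so no row can be assigned to p66Shc and the Shc1 sum covers all Shc proteins.

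The targeted gene matched the labels. Sirt2 was at 2.56, 3.32 and 2.23 FPKM (fragments scaled to transcript length and to library size) in Sirt2-KO aortas, against 26.5, 34.1 and 49.2 FPKM in WT aortas (log2 difference -3.31, adjusted p = 0.00156). Aortic identity was clear in both groups: the smooth muscle actin gene Acta2 was at 3447 to 6731 FPKM in Sirt2-KO and at 3759 to 8512 FPKM in WT, and endothelial Pecam1 was at 88.8 to 93.4 FPKM in Sirt2-KO and 102 to 192 FPKM in WT. Depth is unknown, since the table holds no counts. Rows with a variance under 1.00003 over the 6 samples do not occur in the table, so low transcripts that vary little are missing and a sum per name can be partial. In bulk tissue, fewer cells of a type and less RNA per cell cannot be told apart.

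None of the genes passed the test across all genes. On the log2(FPKM + 1) scale limma called 0 of 9 at an adjusted p of 0.05, against 2.91% of all 8605 tested genes (2.29% as higher in Sirt2-KO and 0.616% as lower). Unadjusted, 3 of 9 (Nox4, Ncf1 and Cybb) had a p under 0.05, against 24.8% of all genes. Nox4 was lower in Sirt2-KO by 1.11, and the phagocyte genes Cybb, Ncf1, Ncf4 and Rac2 were higher by 0.97 to 1.14. In WT the SD of Cybb, Ncf1 and Ncf4 was 0.691, 0.831 and 0.721 FPKM, a variance under 1 for each. Rows with a variance that low over all aortas do not occur in the table. Cybb, Ncf1 and Ncf4 are thus present through the spread that the Sirt2-KO values add, so their presence is not independent of their difference. Cyba differed by 0.12, Rac1 by 0.18, Shc1 by -0.28 and Maoa by -0.91. The median difference was 0.18 over the 9 genes and -0.08 over all tested genes. The 3 values of each group lay apart for 1 of 9 genes, Nox4, against 33.3% of all tested genes (16% with every Sirt2-KO aorta higher and 17.3% with every one lower). Of the 16 single rows 0 were called, against 0.851% of all 13627 tested rows, and 4, all of Nox4, had an unadjusted p under 0.05, against 17.2%. With 3 aortas against 3, the exact two-sided permutation test cannot give a p under 0.1, the value it gave for Nox4, and it gave 0.2 to 0.4 for the other 8 genes.

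**Figure D1:**
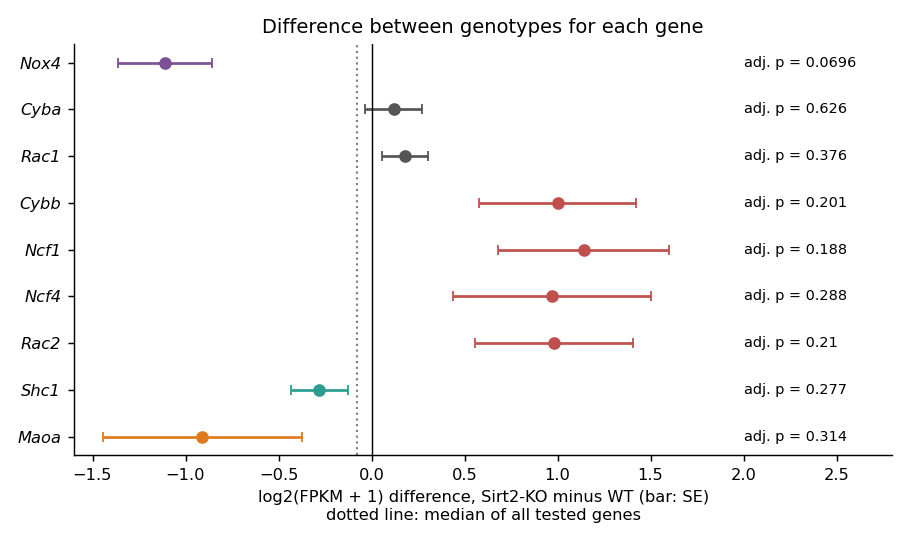
Log2(FPKM + 1) difference, Sirt2-KO minus WT, on the horizontal axis for each gene, with its standard error as a bar, limma's adjusted p at the right and the median of all tested genes as a dotted line at -0.08. Nox4 lies farthest to the left at -1.11, the 4 phagocyte genes lie between 0.97 and 1.14, and no adjusted p is under 0.05.

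FPKM is scaled per length, so levels can be set side by side. In Sirt2-KO the order of mean levels was Cyba (104 FPKM), Rac1 (79.0), Nox4 (43.5), Shc1 (31.9), Maoa (10.3), Rac2 (4.49), Ncf1 (4.47), Cybb (3.30) and Ncf4 (2.41). In WT it was Cyba (95.8 FPKM), Nox4 (92.0), Rac1 (69.1), Shc1 (38.9), Maoa (19.8), Rac2 (1.80), Ncf1 (1.38), Cybb (1.12) and Ncf4 (0.719). Nox4 thus came after Rac1 in Sirt2-KO and before it in WT. Among neighbours, the values of Nox4 and Shc1 and those of Maoa and Rac2 overlapped in Sirt2-KO, and those of Cyba and Nox4 overlapped in WT. The values of the 4 phagocyte genes overlapped within each genotype. These 4 genes were low among the tested genes, at the 1.6 to 8.1 percentile of mean level, whereas Cyba was at the 92.2 percentile. Tested genes average at least 1 FPKM, so lower genes are left out of this ranking.

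**Figure D2:**
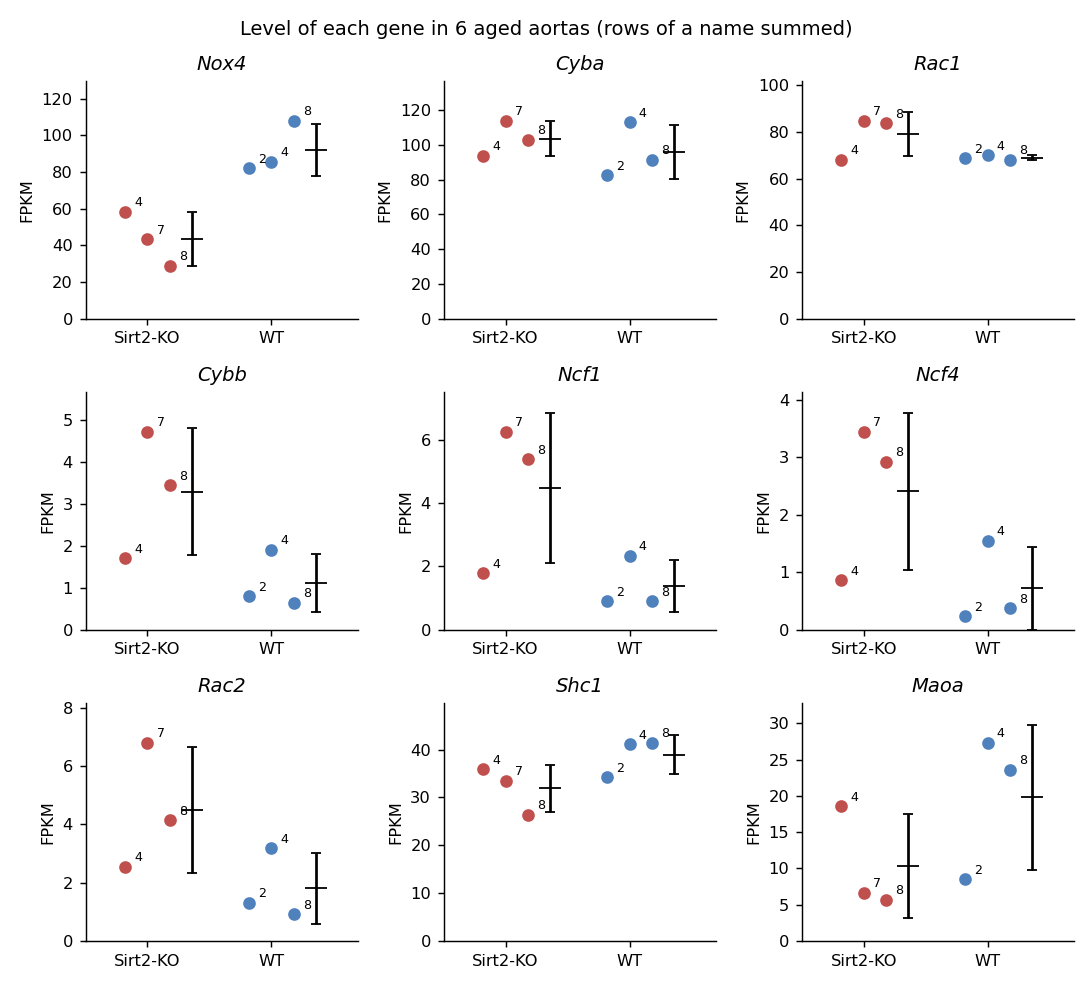
FPKM of each gene on the vertical axes, 1 point for each aorta with its replicate number, Sirt2-KO in red left of WT in blue, with the mean and SD of 3 aortas in black. Nox4 is the gene whose groups do not overlap, and Sirt2-KO replicate 4 and WT replicate 4 sit close to each other for Cybb, Ncf1, Ncf4 and Rac2.

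Nox4 was at 58.3, 43.4 and 28.8 FPKM in Sirt2-KO replicates 4, 7 and 8, and at 82.2, 85.6 and 108 FPKM in WT replicates 2, 4 and 8. Every Sirt2-KO aorta was below every WT aorta, and Sirt2-KO replicate 4 was the nearest to WT. The means were 43.5 ± 14.8 and 92.0 ± 14.1 FPKM (SD, n = 3 each), 2.11-fold lower in Sirt2-KO. The difference of -1.11 (SE 0.255, limma adjusted p = 0.0696) ranked 412 of 8605 by p and did not pass. Without Sirt2-KO replicate 4, the aorta nearest to WT, it was -1.34 and passed (adjusted p = 0.0401). It did not pass without any of the other 5 aortas, with the highest adjusted p = 0.204 without Sirt2-KO replicate 7.

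All 4 Nox4 rows were lower on average in Sirt2-KO. The highest row was at 25.3, 23.1 and 14.2 FPKM in Sirt2-KO and 35.5, 37.8 and 36.6 FPKM in WT, and the second at 21.2, 19.4 and 14.0 FPKM in Sirt2-KO and 31.3, 30.0 and 30.1 FPKM in WT. In both the groups lay apart and WT was even. The third row was at 7.66, 0.415 and 0.257 FPKM in Sirt2-KO and at 10.2, 8.83 and 33.4 FPKM in WT, and the fourth at 4.15, 0.377 and 0.38 FPKM in Sirt2-KO and 5.07, 8.92 and 8.09 FPKM in WT. These lower rows were close to absent in Sirt2-KO replicates 7 and 8 but not in replicate 4, and the third made up 30.9% of the sum in WT replicate 8, whose high total rests on it. Row differences ran from -0.73 to -2.65, with limma adjusted p from 0.131 to 0.203 over all tested rows. With only the highest row, Nox4 differed by -0.82 (adjusted p = 0.12).

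**Figure D3:**
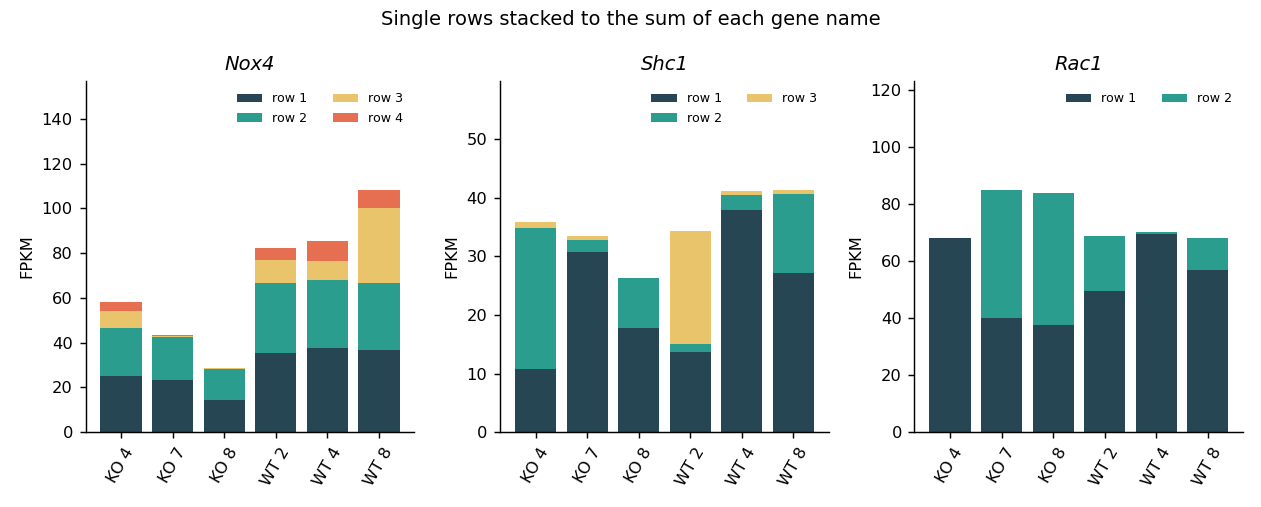
FPKM of the single rows of Nox4, Shc1 and Rac1, stacked to the sum of the name, in each aorta, Sirt2-KO left of WT. Nox4 rows 3 and 4 nearly vanish in Sirt2-KO replicates 7 and 8, while for Shc1 and Rac1 the rows trade places and the sums stay close.

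Nox4 is expressed in smooth muscle and other wall cells, and smooth muscle markers are set beside it here. All 11 had a difference below 0, the smallest in size -0.01 for Cnn1, but 0 of 11 passed limma's test, 4 had an unadjusted p under 0.05 and the groups overlapped for 7. Over all tested genes 2.91% passed, 24.8% had an unadjusted p under 0.05 and 33.3% had groups that lay apart. These shares stand beside the counts of this and each later list. Their median difference was -0.48, with a summed level of 7835 to 14300 FPKM in Sirt2-KO and 9404 to 17574 FPKM in WT, which overlap. Mylk, the myosin light chain kinase, differed by -0.94 (adjusted p = 0.0523) and the integrin gene Itga8 by -1.10 (adjusted p = 0.112). Per 1000 FPKM of these markers Nox4 was at 4.08, 4.29 and 3.68 FPKM in Sirt2-KO and 5.31, 9.10 and 6.16 FPKM in WT, and the groups lay apart on that scale as well. Acta2 and Tagln, at means of 5746 and 3765 FPKM, make up most of that sum, so the scale mainly sets Nox4 against them. The Sirt2-KO mean over the WT mean was 0.473 for Nox4, 0.476 for Itga8 and 0.52 for Mylk, and higher for every other marker. The part of smooth muscle content in the difference of Nox4 was not tested. Over the 8096 genes compared, those most like Nox4 across the 6 aortas were Cap2, Sh3rf2, Pde3a, Slc38a11 and Sorl1, whose centred log2 profiles departed from that of Nox4 by a root mean square of 0.06 to 0.11. Pde3a, a phosphodiesterase of smooth muscle and heart, was at 18.4, 15.1 and 10.2 FPKM in Sirt2-KO and 27.6, 27.7 and 33.6 FPKM in WT.

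Cyba, the partner of both catalytic subunits, was at 93.8, 114 and 103 FPKM in Sirt2-KO and 82.7, 113 and 91.6 FPKM in WT. The groups overlapped, and the difference was 0.12 (SE 0.153, limma adjusted p = 0.626). Its main row held 94.0 to 97.5% of the sum in Sirt2-KO and 95.6 to 97.5% in WT. Within an aorta, the ratio of Nox4 to Cyba was 0.622, 0.381 and 0.279 in Sirt2-KO and 0.993, 0.756 and 1.18 in WT. The ratio of Nox4 to Cybb was 34.2, 9.17 and 8.33 in Sirt2-KO and 103, 44.8 and 167 in WT. Both ratios were lower in every Sirt2-KO aorta than in any WT aorta. Nox4 alone lay apart in the same way, so the ratios are not independent of that result. Nox4 remained the more abundant catalytic gene in all 6.

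Cybb was at 1.71, 4.73 and 3.46 FPKM in Sirt2-KO replicates 4, 7 and 8 and at 0.795, 1.91 and 0.648 FPKM in WT replicates 2, 4 and 8. Sirt2-KO replicates 7 and 8 were the highest, and Sirt2-KO replicate 4 lay below WT replicate 4, so the groups overlapped. The mean was 2.95-fold that of WT (log2 difference 1.0, SE 0.423, limma adjusted p = 0.201). Ncf1, the organiser subunit, was at 1.79, 6.25 and 5.38 FPKM in Sirt2-KO and 0.902, 2.34 and 0.905 FPKM in WT, with a difference of 1.14 (SE 0.458, adjusted p = 0.188). Ncf4, which binds phosphoinositides on phagosomes, was at 0.863, 3.44 and 2.92 FPKM in Sirt2-KO and 0.236, 1.55 and 0.374 FPKM in WT, with a difference of 0.97 (SE 0.534, adjusted p = 0.288). Rac2, the Rac GTPase of blood cells, was at 2.54, 6.79 and 4.13 FPKM in Sirt2-KO and 1.31, 3.18 and 0.908 FPKM in WT, with a difference of 0.98 (SE 0.425, adjusted p = 0.210).

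These 4 genes ordered the aortas alike. In each, Sirt2-KO replicate 7 was highest, followed by Sirt2-KO replicate 8, WT replicate 4 and Sirt2-KO replicate 4, with WT replicates 2 and 8 lowest. Their sum was 6.89, 21.2 and 15.9 FPKM in Sirt2-KO and 3.25, 8.98 and 2.84 FPKM in WT. None of the 4 passed under any of the alternatives tried, and the lowest adjusted p was 0.0745, for Ncf1 without Sirt2-KO replicate 4. A pseudocount of 0.1, which compresses low values less, gave a difference of 1.76 for Ncf4 and 1.35 to 1.58 for the other 3 genes. By the same measure of likeness the genes closest to Cybb were Nckap1l, Pik3ap1, Ccnd1, Rac2 and Cd34, at 0.05 to 0.12. Nckap1l, a blood cell gene that controls actin downstream of Rac, was at 2.17, 5.25 and 4.16 FPKM in Sirt2-KO and 1.19, 2.39 and 0.983 FPKM in WT. Ccnd1 and Cd34 were far more abundant, at means of 18.1 and 67.5 FPKM over all aortas against 2.21 FPKM for Cybb. The fibroblast markers described below also summed highest in Sirt2-KO replicates 7 and 8 (2903 and 2403 FPKM), but lowest in WT replicate 4 (805 FPKM).

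These subunits are known as genes of macrophages and other phagocytes. All 20 markers had a higher mean on the log scale in Sirt2-KO, 2 of 20 passed (Folr2 and F13a1) and 15 had an unadjusted p under 0.05. Their summed level was 586, 960 and 936 FPKM in Sirt2-KO and 273, 551 and 210 FPKM in WT, which orders the aortas as the subunits do, except that Sirt2-KO replicate 4 comes before WT replicate 4. Folr2, a folate receptor of resident macrophages, was at 14.8, 27.0 and 26.0 FPKM in Sirt2-KO and 5.20, 7.56 and 4.74 FPKM in WT (difference 1.77, limma adjusted p = 0.0260). F13a1, the coagulation factor XIII subunit made by macrophages, differed by 1.16 (adjusted p = 0.0468). The call of Folr2 was lost in 5 of 14 alternatives (adjusted p up to 0.441) and that of F13a1 in 9 of 14 (up to 0.543), median-of-ratios scaling and the fit without a trend among them for F13a1. C1qa (1.72) and Fcgr3 (1.53) did not pass, each with adjusted p = 0.0502. Per 1000 FPKM of macrophage markers the 4 subunits summed to 11.8, 22.1 and 17.0 FPKM in Sirt2-KO and 11.9, 16.3 and 13.5 FPKM in WT. The groups overlapped on that scale, as they already did for the unscaled sum. Lyz2, C1qa, C1qb and C1qc, at means of 166, 92.7, 71.3 and 61.7 FPKM, make up most of that marker sum. The part of macrophage content in the level of the subunits was not tested.

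**Figure D4:**
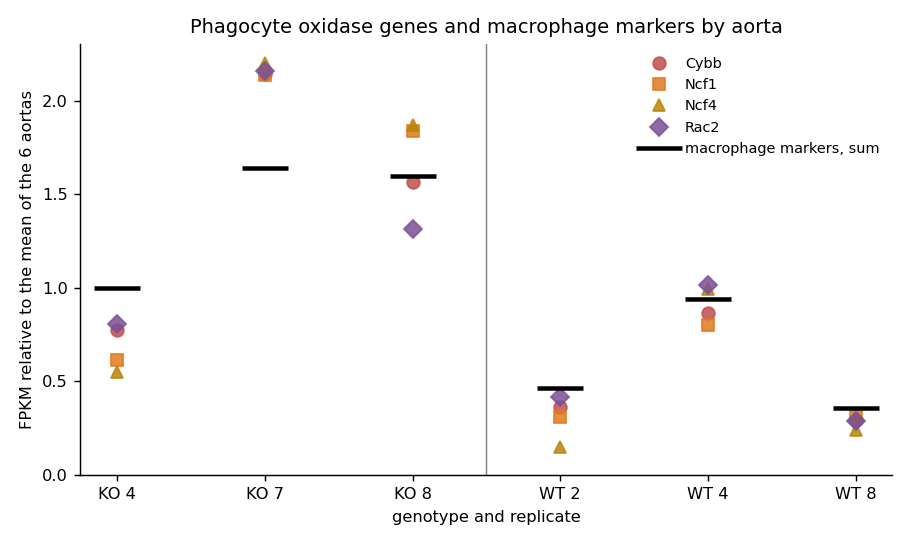
FPKM of Cybb, Ncf1, Ncf4 and Rac2, and the summed FPKM of 20 macrophage markers (black bars), each divided by its mean over the 6 aortas, by aorta, with Sirt2-KO left of WT. All are highest in Sirt2-KO replicates 7 and 8 and lowest in WT replicates 2 and 8, with both replicates 4 between.

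Of 10 pan-leukocyte markers all 10 had a higher mean on the log scale in Sirt2-KO, 0 of 10 passed limma's test and 5 had an unadjusted p under 0.05. Their summed level was 66.4 to 132 FPKM in Sirt2-KO and 33.0 to 86.1 FPKM in WT. Cyth4 differed by 1.39 (adjusted p = 0.0567) and Laptm5 by 1.52 (adjusted p = 0.118). Neutrophils also use this oxidase, and 9 of their 12 markers, among them Ly6g, Mpo and Elane, were not among the table's names. The other 3 summed to 5.17 to 15.7 FPKM in Sirt2-KO and 11.7 to 59.6 FPKM in WT. S100a9 differed by -1.54 (adjusted p = 0.151) and Retnlg by -1.04 (adjusted p = 0.274), opposite in sign to Cybb, and neither passed. A name can be missing because low transcripts that vary little are not in the table. The missing markers therefore do not measure neutrophil content. The part of neutrophils in the level of Cybb was not tested.

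Rac1, the Rac GTPase of most cells, was at 68.1, 84.9 and 83.9 FPKM in Sirt2-KO and at 68.8, 70.2 and 68.2 FPKM in WT. WT was even, Sirt2-KO replicates 7 and 8 were the highest and Sirt2-KO replicate 4 was the lowest by a small margin. The difference was 0.18 (SE 0.124, limma adjusted p = 0.376), and with only the highest row it was -0.30 (adjusted p = 0.491). Its rows traded places: the higher row was at 68.1, 40.1 and 37.5 FPKM in Sirt2-KO and 49.5, 69.5 and 56.8 FPKM in WT, and the other at 0.00877, 44.8 and 46.4 FPKM in Sirt2-KO and 19.3, 0.684 and 11.4 FPKM in WT. The second row thus held 0.0129, 52.8 and 55.3% of Rac1 in Sirt2-KO and 28.0, 0.975 and 16.7% in WT, and both replicates 4 had next to none of it. How reads that fit several transcripts, or the paralogs Rac1, Rac2 and Rac3, were divided is not stated in the labels or the file headers. The ratio of Rac1 to Rac2 was 26.9, 12.5 and 20.3 in Sirt2-KO and 52.3, 22.1 and 75.1 in WT.

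Shc1 was at 35.9, 33.5 and 26.4 FPKM in Sirt2-KO and 34.2, 41.1 and 41.4 FPKM in WT. The groups overlapped, since Sirt2-KO replicate 4 exceeded WT replicate 2. The difference was -0.28 (SE 0.153, limma adjusted p = 0.277), and it lay between -0.41 and -0.16 in every fit tried. Its 3 rows varied far more than the sum: row 1 held 30.0, 91.6 and 67.5% of Shc1 in Sirt2-KO and 39.9, 92.2 and 65.8% in WT. Row 2 was at 24.0, 2.09 and 8.46 FPKM in Sirt2-KO and 1.40, 2.66 and 13.4 FPKM in WT, and row 3 was at 19.2 FPKM in WT replicate 2 and at 0.105 to 1.05 FPKM in the other 5 aortas. Row 1 differed by -0.40, row 2 by 0.84 and row 3 by -1.27, with adjusted p from 0.522 to 0.655. The genes most like Shc1, Nsf, Hpf1, Ulk2, Zmynd11 and Snw1, departed from its profile by 0.04 to 0.05, but the profile itself is flat (0.21), so this closeness says little.

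Maoa was at 18.6, 6.64 and 5.69 FPKM in Sirt2-KO replicates 4, 7 and 8 and at 8.49, 27.3 and 23.6 FPKM in WT replicates 2, 4 and 8. Sirt2-KO replicate 4 was high like WT replicates 4 and 8, and WT replicate 2 was low like the other Sirt2-KO aortas, so the groups overlapped. The means were 10.3 ± 7.18 and 19.8 ± 9.97 FPKM (SD, n = 3 each), and the difference was -0.91 (SE 0.535, limma adjusted p = 0.314). It was -1.40 without WT replicate 2 and -0.61 without WT replicate 4, and did not pass in either fit. Maob, its paralog with a preference for phenylethylamine, was at 21.2, 18.9 and 17.9 FPKM in Sirt2-KO and 13.7, 21.2 and 21.6 FPKM in WT (difference 0.06, adjusted p = 0.860). The ratio of Maoa to Maob was 0.877, 0.352 and 0.318 in Sirt2-KO and 0.622, 1.29 and 1.09 in WT, with overlap.

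Maoa varied over the aortas like several genes of sympathetic neurons, in which its enzyme breaks down noradrenaline. The tyrosine hydroxylase gene Th was at 63.7, 2.67 and 5.27 FPKM in Sirt2-KO and 7.87, 109 and 67.2 FPKM in WT, and Dbh, the enzyme that forms noradrenaline, at 71.5, 2.85 and 5.76 FPKM in Sirt2-KO and 5.83, 104 and 74.0 FPKM in WT. The noradrenaline transporter gene Slc6a2 was at 33.2, 1.80 and 2.40 FPKM in Sirt2-KO and 2.85, 32.1 and 28.8 FPKM in WT. In all of these, as in Maoa, WT replicate 4, WT replicate 8 and Sirt2-KO replicate 4 held the 3 highest values. The genes most like Maoa were Svop, Eno2, Basp1, Ccdc92 and Jph3, at 0.09 to 0.15 against 0.83 for the size of its own profile. Eno2, the neuronal enolase, was at 14.3, 3.76 and 4.01 FPKM in Sirt2-KO and 5.22, 17.9 and 16.1 FPKM in WT. Svop, Eno2, Basp1, Ccdc92 and Jph3 were picked for their closeness to Maoa, and Th, Dbh and Slc6a2 were added after their values were seen. Their likeness to Maoa thus follows from how they were chosen. The part of nerve content in the level of Maoa was not tested.

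**Figure D5:**
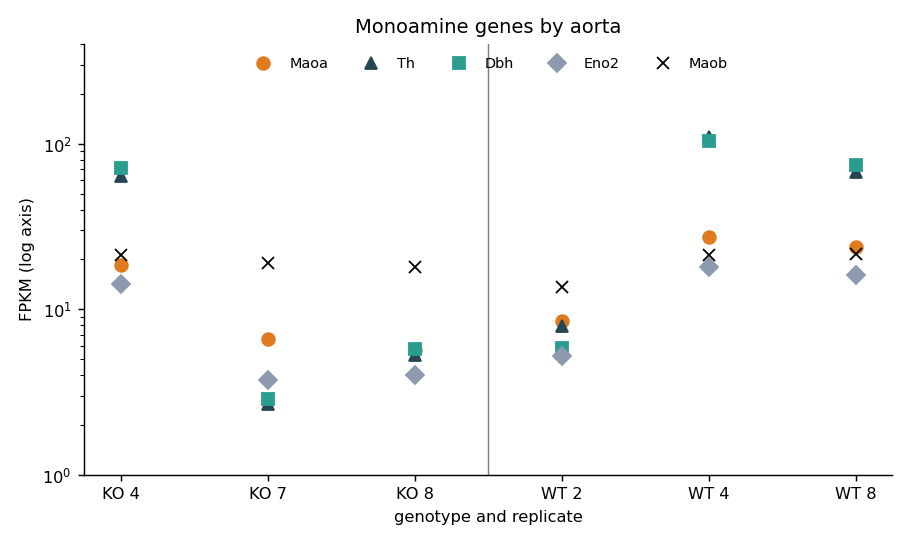
FPKM on a log axis of Maoa, Maob, the noradrenaline synthesis genes Th and Dbh, and the neuronal enolase gene Eno2 in each aorta, Sirt2-KO left of WT. Maoa, Th, Dbh and Eno2 are high in Sirt2-KO replicate 4 and WT replicates 4 and 8 and low in the other 3 aortas, while Maob is nearly level.

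In the list of amine oxidation and monoamine genes, 12 of 16 were in the table and 0 of 12 passed limma's test, with 2 at an unadjusted p under 0.05 and a median difference of -0.54. The organic cation transporter gene Slc22a3 averaged 9.44 ± 2.51 FPKM in Sirt2-KO and 13.3 ± 1.4 FPKM in WT (difference -0.47, adjusted p = 0.188). Aoc3, the copper amine oxidase of vascular smooth muscle and fat cells, was at 87.8 ± 6.29 FPKM in Sirt2-KO and 104 ± 26.0 FPKM in WT. Of 7 nerve and Schwann cell markers 2 fell and 5 did not pass, with all 7 differences below 0, a median of -1.25 and a summed level of 37.2 to 50.3 FPKM in Sirt2-KO and 76.3 to 184 FPKM in WT. Prx, a gene of peripheral myelin, fell by 1.25 (adjusted p = 0.0320). Mbp, a myelin protein gene, missed the threshold at a difference of -1.77 (adjusted p = 0.0567).

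Of 14 other NADPH oxidase and dual oxidase genes, 5 were among the table's names, and Nox1, Noxo1, Noxa1 and both Duox genes were not. None of the 5 passed limma's test, 1 had an unadjusted p under 0.05, and their median difference was 0.13. Rap1a, a small GTPase that copurifies with the phagocyte oxidase, was at 30.3, 29.2 and 25.3 FPKM in Sirt2-KO and 33.9, 38.0 and 38.4 FPKM in WT (difference -0.37, adjusted p = 0.127). Among the 7 listed Rac regulators found, 0 passed limma's test and 2 had an unadjusted p under 0.05. Arhgdib, a GTPase inhibitor of blood cells, differed by 0.95 and Abr, which turns Rac off, by -0.83, each with adjusted p = 0.0768.

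In the Shc pathway list 1 of 9 genes in the table fell, 0 rose and 3 had an unadjusted p under 0.05. That gene was Prkcd, a protein kinase C that can phosphorylate p66Shc, at 23.5, 29.5 and 23.7 FPKM in Sirt2-KO and 39.0, 40.3 and 46.6 FPKM in WT (difference -0.70, limma adjusted p = 0.0492). The call was marginal and was lost in 11 of 14 alternatives, the omission of each single aorta among them (adjusted p up to 0.193 on such omissions). Shc2, a neuronal relative of Shc1, was at 6.31, 7.74 and 7.50 FPKM in Sirt2-KO and 1.87, 4.61 and 4.02 FPKM in WT (difference 0.92, adjusted p = 0.119), and Sos2, which activates Ras, differed by -0.46 (adjusted p = 0.160).

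Among 5 other sources of reactive oxygen in the table, 1 rose, 0 fell and 3 had an unadjusted p under 0.05. Cyp2e1, a cytochrome P450 that leaks superoxide, was at 300, 185 and 220 FPKM in Sirt2-KO and 30.8, 62.8 and 9.35 FPKM in WT (difference 3.07, limma adjusted p = 0.0494). That call was lost in 11 of 14 alternatives, with adjusted p up to 0.198. Ero1l, an oxidase of the endoplasmic reticulum, differed by -0.39 (adjusted p = 0.201). Of 10 fat cell markers 2 rose and 8 did not pass, with 9 differences above 0 and 1 below (Ucp1, -0.47), a median of 2.13 and a summed level of 4781 to 7358 FPKM in Sirt2-KO and 694 to 3072 FPKM in WT. Cfd rose by 3.74 (adjusted p = 0.0158) and Retn by 3.30 (adjusted p = 0.0296), while Adipoq (2.40, adjusted p = 0.0768) and Lipe (2.24, adjusted p = 0.103) did not pass. The part of fat cell content in these differences was not tested.

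All 19 listed genes of superoxide and peroxide removal were in the table. None passed limma's test, 4 had an unadjusted p under 0.05, and the median difference was 0.08. The mitochondrial thioredoxin reductase Txnrd2 was at 11.8, 13.6 and 14.8 FPKM in Sirt2-KO and 10.0, 9.43 and 8.09 FPKM in WT (difference 0.50, adjusted p = 0.105). The secreted glutathione peroxidase Gpx3 was at 255, 363 and 417 FPKM in Sirt2-KO and 153, 260 and 88.6 FPKM in WT (difference 1.14, adjusted p = 0.140).

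NOX4 is also made by fibroblasts and endothelial cells, and the markers of these cells had medians of opposite sign, 1.73 for fibroblasts and -0.24 for the endothelium. Of 9 fibroblast markers 4 rose (Pi16 by 2.37, Clec3b by 2.51, Pcolce by 1.73 and Dpt by 1.87, limma adjusted p from 0.00509 to 0.0229). Lum (1.80, adjusted p = 0.0581) and Pdgfra (1.38, adjusted p = 0.0614) did not pass. Their summed level was 1622 to 2903 FPKM in Sirt2-KO and 805 to 991 FPKM in WT. Of 10 endothelial markers 0 passed and 2 had an unadjusted p under 0.05, Egfl7 (-0.65, adjusted p = 0.0699) and Erg (-0.50, adjusted p = 0.113). Their summed level was 350 to 434 FPKM in Sirt2-KO and 410 to 693 FPKM in WT. The parts of these cell types in the difference of Nox4 were not tested.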

How the data were processed

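The authors deposited 1 table of FPKM values with a column for each aorta, per the file headers. The submitters' processing notes name Bowtie 0.12.2 and mm9 without giving their role, and neither the labels nor the header states the quantifier, the annotation or the row filter. Of 14083 rows, 39 named by a calendar date were dropped, and rows sharing a name were summed. The 8605 names averaging at least 1 FPKM were fitted in R 4.3.3 with limma 3.58.1 (lmFit, then eBayes with a trend) on log2(FPKM + 1). Tests were two-sided. Adjusted p-values are Benjamini-Hochberg values over all names tested, with a threshold of 0.05. The pseudocount of 1 understates changes of low genes. Differences are Sirt2-KO minus WT. Single rows were fitted in the same way. Without counts, depth is unknown and intervals for counting error cannot be given. The p-values set each difference against the spread among 3 mice per group, which limma draws towards a trend over all tested names.

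The genes and lists were chosen with earlier results of these data known. Besides the 9 genes and Sirt2, the text names up to 5 called genes of each list and its 2 uncalled genes with the smallest p, and the 5 genes with the smallest root mean square difference of centred log2 values from Shc1, Cybb, Nox4 and Maoa, leaving out clone-type names. Some genes that this rule names are not reported here. Acta2, Pecam1, Cnn1, Ucp1, Maob, Aoc3, Th, Dbh and Slc6a2 were added after their values were seen. On data simulated for Sirt2-KO against WT with 8605 genes, limma called 67 of 100 genes that differed by 1 (log2) and 88 of 100 that differed by 2. The changed genes were drawn only from mean levels above those of Cybb, Ncf1, Ncf4 and Rac2, so these rates do not cover such low genes. The simulated noise was normal and independent between genes, which real data need not be. GRCm38.p6 served only for names, transcripts and promoter windows, which were found for 6 of the 9 genes. Figures were drawn with matplotlib 3.10.9.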

Additional observations from a re-analysis of the deposited data

How the results depend on the processing

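Over 14 alternatives, 119 of 122 refits of the 9 genes kept their direction and their side of the threshold. Nox4 passed without Sirt2-KO replicate 4, which made 1 of 9 genes called instead of 0, and its difference lay between -1.34 and -0.85 when single aortas were left out. Cyba changed sign with the replicate block (-0.05) and Rac1 with only the highest row of each name (-0.30). For single rows, Cyba row 1 was at -0.02 with quantile normalization and -0.07 with the replicate block, and Rac1 row 2 lay between -0.29 and 2.63 with 1 aorta left out. Zmynd11 was at 0.22 with its highest row only. The cause of these changes was not tested. With a minimum mean of 5 FPKM, Cybb, Ncf1, Ncf4 and Rac2 were too low to be tested.

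The count of called genes, 250, was 151 with the highest row only and between 28 and 342 with 1 aorta left out. The lowest value came without Sirt2-KO replicate 7, and omitting Sirt2-KO replicate 8 gave 29 genes, WT replicate 2 gave 71 and WT replicate 8 gave 148. The count of called rows, 116, was 77 with a pseudocount of 0.1 and between 26 and 136 with 1 aorta left out. With the replicate number as a block, 3 genes and 0 rows were called (669 genes and 958 rows at an unadjusted p under 0.05). The labels do not say that a number pairs mice. Aortas numbered 4 and 8 in both groups had correlations of deviations of -0.05 and -0.45. Pairs of unlike number ran from -0.31 to 0.35. These few pairs cannot tell whether aortas of equal number shared a condition. Numbers 2 and 7 occur in only 1 group each, so the block fit takes the genotype difference from numbers 4 and 8 alone. Among the other named genes, 68 refits lost a call and 20 gained one. Apart from Sirt2 and Pi16, each of the called ones missed the threshold when Sirt2-KO replicate 7 was omitted and again when replicate 8 was (adjusted p up to 0.193 on omission of any aorta). With only their highest rows, Pcolce (0.56) and Prx (-0.36) did not pass.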
